A study of Homo sapiens with 6 samples.

Results

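The Eph receptors and their ephrin ligands were examined in HK2 cells after knockdown of OCRL. The 10 genes listed by symbol were 5 receptors (EPHA2, EPHA3, EPHA4, EPHB2 and EPHB4) and 5 ligands (EFNA1, EFNA4, EFNA5, EFNB1 and EFNB2). Every probe set that the platform annotation assigns to one of them was taken. This gave 14 probe sets of 9 genes, among 11963 genes measured under a name. EPHB2 had no probe set named here and was not analysed. The genes were chosen by their differences between OCRL siRNA and control siRNA arrays as well as by family, with the fall of EPHA3 already known, so the values of the 9 genes are given as a description. No p-value is printed for them, and a call says only on which side of the threshold a gene lay in the fit, which is no independent test of it.

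HK2 cells are immortalised epithelial cells from the proximal tubule of the human kidney, and OCRL encodes a phosphoinositide phosphatase of endosomes whose loss causes Lowe syndrome. Both groups were seeded alike and transfected at 30% confluence with the same reagent. The control group received a non-targeting siRNA and the other group OCRL siRNA, both for 96 h. There were 3 arrays per group, from what the labels call independent experiments, and this small number limits the precision. Whether the OCRL siRNA was a single duplex or a pool is not given in the sources used here, and an effect of the reagent other than the loss of OCRL cannot be told apart from that loss.

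Eph receptors form the largest family of receptor tyrosine kinases and signal where cells touch. Ephrins are bound to the membrane of the neighbouring cell, the A class by a glycosylphosphatidylinositol anchor and the B class by a transmembrane segment, so that a contact sends a forward signal into the cell with the receptor and a reverse signal into the cell with the ligand. The pair is known from axon guidance, from the sorting of cells into separate layers and from the separation of arteries and veins, and in epithelia EPHA2 and ephrin-A1 lie at cell-cell junctions.

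OCRL itself was lowered on every knockdown array. Its brighter probe set had log2 values of 9.49, 9.48 and 9.51 on the control arrays and 7.52, 7.49 and 7.40 on the OCRL siRNA arrays, which left 24.6% of the control level (log2 difference -2.02, SE 0.048, limma adjusted p = 1.242e-05). Its dimmer probe set had a smaller log2 difference of -1.01 (SE 0.10, limma adjusted p = 7.644e-04), which left 49.7%. An exact permutation test, two-sided with 20 possible assignments, gave p = 0.1 for each probe set, the smallest it can give. The medians of the arrays ran from 7.23 to 7.30, and Pearson's r across probe sets was at least 0.998 within a group and 0.994 to 0.995 between groups. Of the markers fixed for the identity of the cells, 8 of 9 general epithelial genes lay above the median of every array. So did the tubule genes PAX8, MME and DPP4, the fibroblast genes LUM, COL1A1 and FBLN1 and the neuronal genes SNAP25 and TUBB3. The epithelial gene CDH1 and the tubule genes LRP2, AQP1 and ANPEP were under the lower quartile on all 6 arrays. The same held for 2 genes each of the fibroblast, neuronal and leukocyte lists. The epithelial marker list itself differed between groups, with 6 of 9 genes lower and 1 higher (limma, adjusted p under 0.05), and its mean log2 level was 10.10 to 10.13 on control arrays and 9.65 to 9.69 on knockdown arrays. Of 11 measured proximal tubule genes 4 were called, 3 higher and 1 lower, namely PAX8, MME, DPP4 and ANPEP, and the mean log2 level of that list was 6.34 to 6.44 on control arrays and 6.44 to 6.54 on knockdown arrays. The part of these shifts in the values given here was not tested. Leukocyte markers were called in 0 of 9 genes (limma, 0 at an unadjusted p under 0.05). Fibroblast markers were called in 2 of 9, 1 higher and 1 lower, and neuronal markers in 4 of 7, 2 higher and 2 lower. Over all genes 26.0% were called.

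Of the 9 genes, EPHA3, EFNA1 and EFNA5 were lower after the knockdown and EPHA4 was higher, each by its brightest probe set at an adjusted p under 0.05 in the limma fit over all 22215 probe sets. Among all 11963 genes this call was met by 26.0%, 15.5% higher and 10.5% lower. The same 4 genes were the ones whose 3 knockdown arrays did not overlap the 3 control arrays, a condition met by 44.9% of all genes. In RNA of a whole culture, fewer cells that express a gene and less of its RNA per cell cannot be told apart. The other 5 genes, EPHA2, EPHB4, EFNA4, EFNB1 and EFNB2, were not called. The differences of the 9 genes ran from -1.62 to 0.29 on the log2 scale with a median of 0.001, against a median of 0.0005 over all genes. Signal on an array depends on the probe, so levels are compared between groups within a probe set and not between genes.

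**Figure D1:**
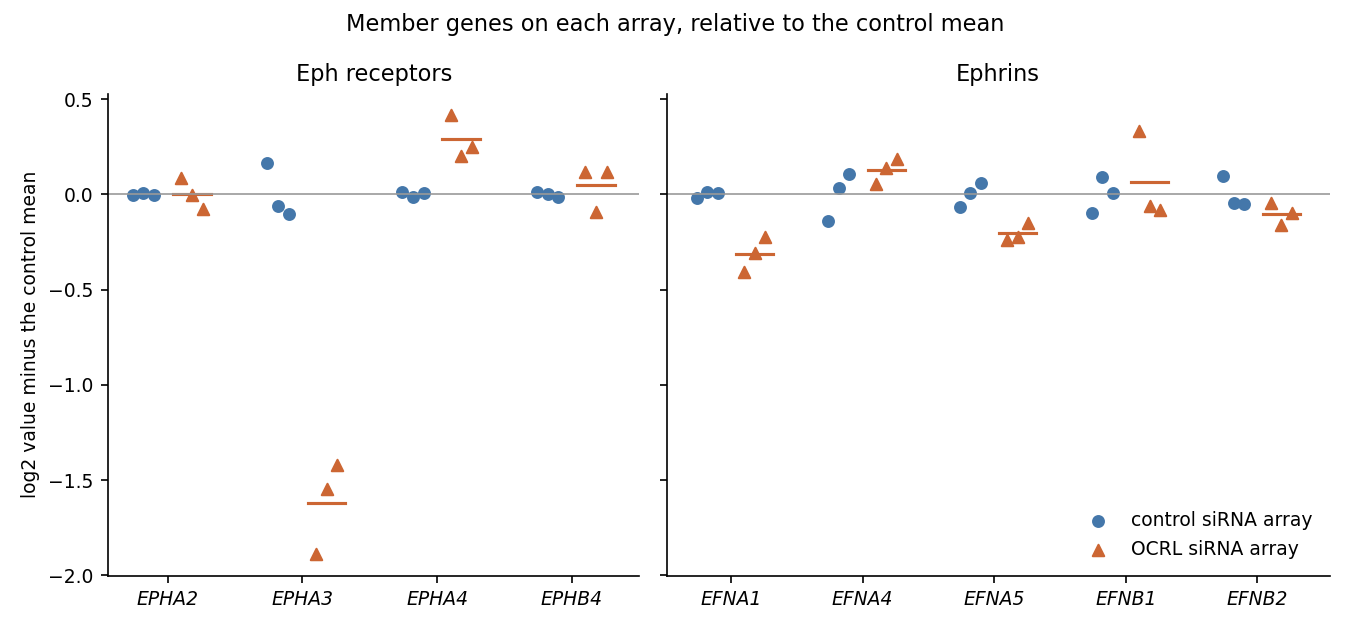
Log2 value of the brightest probe set of each of the 9 genes on each array, minus the mean of the 3 control arrays (y axis, log2 units), with Eph receptors on the left and ephrins on the right. Circles are control siRNA arrays, triangles OCRL siRNA arrays, and short lines the means of the OCRL siRNA arrays. The mean of the triangles is at -1.62 for EPHA3, -0.31 for EFNA1, -0.20 for EFNA5 and 0.29 for EPHA4, and the triangles of the other 5 genes overlap the circles.

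The 4 called genes are given here with the 250 bases that precede their annotated start, from RefSeq on GRCh38.p14, as the sequence context in which they are transcribed. The windows lie at chr3:89107371-89107620 on the plus strand for EPHA3, chr2:221574203-221574452 on the minus strand for EPHA4, chr1:155127626-155127875 on the plus strand for EFNA1 and chr5:107670938-107671187 on the minus strand for EFNA5. Each is written 5′ to 3′ on the strand of the gene, with capitals for the GC box GGGCGG on either strand.
EPHA3: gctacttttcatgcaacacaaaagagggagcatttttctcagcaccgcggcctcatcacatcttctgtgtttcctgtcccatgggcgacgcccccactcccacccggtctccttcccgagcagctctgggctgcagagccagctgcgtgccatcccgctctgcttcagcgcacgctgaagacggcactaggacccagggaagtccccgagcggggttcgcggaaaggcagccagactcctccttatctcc
EPHA4: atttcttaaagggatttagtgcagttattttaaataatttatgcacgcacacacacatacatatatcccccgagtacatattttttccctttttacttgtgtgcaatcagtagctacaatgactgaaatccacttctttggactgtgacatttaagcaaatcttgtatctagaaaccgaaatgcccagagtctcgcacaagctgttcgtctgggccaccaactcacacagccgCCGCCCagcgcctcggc
EFNA1: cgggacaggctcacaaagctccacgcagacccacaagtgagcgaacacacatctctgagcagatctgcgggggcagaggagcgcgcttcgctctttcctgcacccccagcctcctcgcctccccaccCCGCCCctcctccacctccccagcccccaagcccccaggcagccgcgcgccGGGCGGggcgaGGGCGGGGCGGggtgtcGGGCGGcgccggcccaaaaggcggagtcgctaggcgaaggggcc
EFNA5: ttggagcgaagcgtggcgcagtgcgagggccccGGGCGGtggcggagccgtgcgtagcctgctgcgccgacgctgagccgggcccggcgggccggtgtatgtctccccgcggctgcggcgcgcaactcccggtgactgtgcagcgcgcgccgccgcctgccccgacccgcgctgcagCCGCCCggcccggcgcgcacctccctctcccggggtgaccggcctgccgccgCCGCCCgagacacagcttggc
The GC box was present 5 times before EFNA1, where a pair of copies shares 1 base, 3 times before EFNA5, once before EPHA4 and not before EPHA3. It was found in 42.2% of the 27305 RefSeq windows of the same length and in 9 of the 10 listed genes. GC content was 73.2% before EFNA1, 79.6% before EFNA5, 61.2% before EPHA3 and 43.2% before EPHA4, with a median of 57.6% over all windows. The AP-1 motif TGANTCA (in 6.57% of all windows) and the E-box CACGTG (6.46%) were in none of the 10 windows, and the TATA box TATAAA (11.2%) was in that of EFNB2 alone. These are matches of letters in a short window and were not tested against the expression values.

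Among the receptors, EPHA3 showed by far the widest difference. EPHA3 binds ephrin-A ligands, EFNA5 foremost, and is known from neural and heart development and from several tumours. Its brightest probe set, 206070_s_at, had log2 values of 6.42, 6.20 and 6.16 on the control arrays and 4.38, 4.71 and 4.84 on the knockdown arrays. The highest knockdown array lay 1.32 log2 units below the lowest control array. The mean went from 6.26 ± 0.14 (SD, n = 3) to 4.64 ± 0.24, a 3.07-fold fall (log2 difference -1.62, SE 0.13, 95% interval -1.93 to -1.31) that left 32.6% of the control signal.

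The other EPHA3 probe sets were much dimmer and showed far smaller differences. Probe set 206071_s_at, which carries the same source sequence in the annotation, had 4.33, 4.44 and 4.53 on control and 4.17, 4.19 and 4.29 on knockdown arrays, so that the groups did not overlap, but the difference of -0.22 (SE 0.065) was not called. For 211164_at, annotated from another EPHA3 sequence, the values were 3.42, 3.40 and 3.42 on control and 3.20, 3.40 and 3.30 on knockdown arrays, and the groups overlapped (log2 difference -0.11, SE 0.058). Both of these probe sets were under the lower quartile on all 6 arrays, where RMA compresses differences. The brightest probe set was above that quartile on the 3 control arrays and below it on the 3 knockdown arrays. All 3 probe sets thus pointed the same way, while the size of the fall rests on 206070_s_at alone and is less certain for ending among dim signals.

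EPHA4, a receptor that binds ephrins of both classes and is known from axon repulsion, was the 1 gene of the list that was higher. Its single probe set had log2 values of 7.58, 7.55 and 7.58 on the control arrays and 7.98, 7.77 and 7.82 on the knockdown arrays. The control arrays spanned 0.028 log2 units, and the knockdown arrays, which spread more, all lay above them. The mean rose 1.22-fold, from 7.57 ± 0.015 to 7.86 ± 0.11 (log2 difference 0.29, SE 0.063, 95% interval 0.14 to 0.44). EPHA4 was not called without control replicate 2 or control replicate 3, with differences of 0.28 and 0.29.

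EPHA2, the main Eph receptor of epithelial cells and the principal partner of ephrin-A1, was among the brighter probe sets, above 78.7% of those on any array. It had 9.998, 10.008 and 10.0004 on the control arrays and 10.09, 9.998 and 9.92 on the knockdown arrays. The knockdown values lay on both sides of the control values, and the difference was 0.001 (SE 0.053, 95% interval -0.12 to 0.13). Larger shifts in either direction lie outside this interval.

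EPHB4, the receptor of ephrin-B2 known from veins, was measured by a pair of probe sets that gave small differences of opposite sign. The brighter, 202894_at, had 7.86, 7.84 and 7.83 on control and 7.96, 7.75 and 7.96 on knockdown arrays (log2 difference 0.05, SE 0.066, 95% interval -0.11 to 0.20). The dimmer, 216680_s_at, had 6.98, 7.19 and 7.15 on control and 6.95, 7.11 and 7.12 on knockdown arrays (log2 difference -0.05, SE 0.075, 95% interval -0.23 to 0.13). In both, the groups overlapped.

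**Figure D2:**
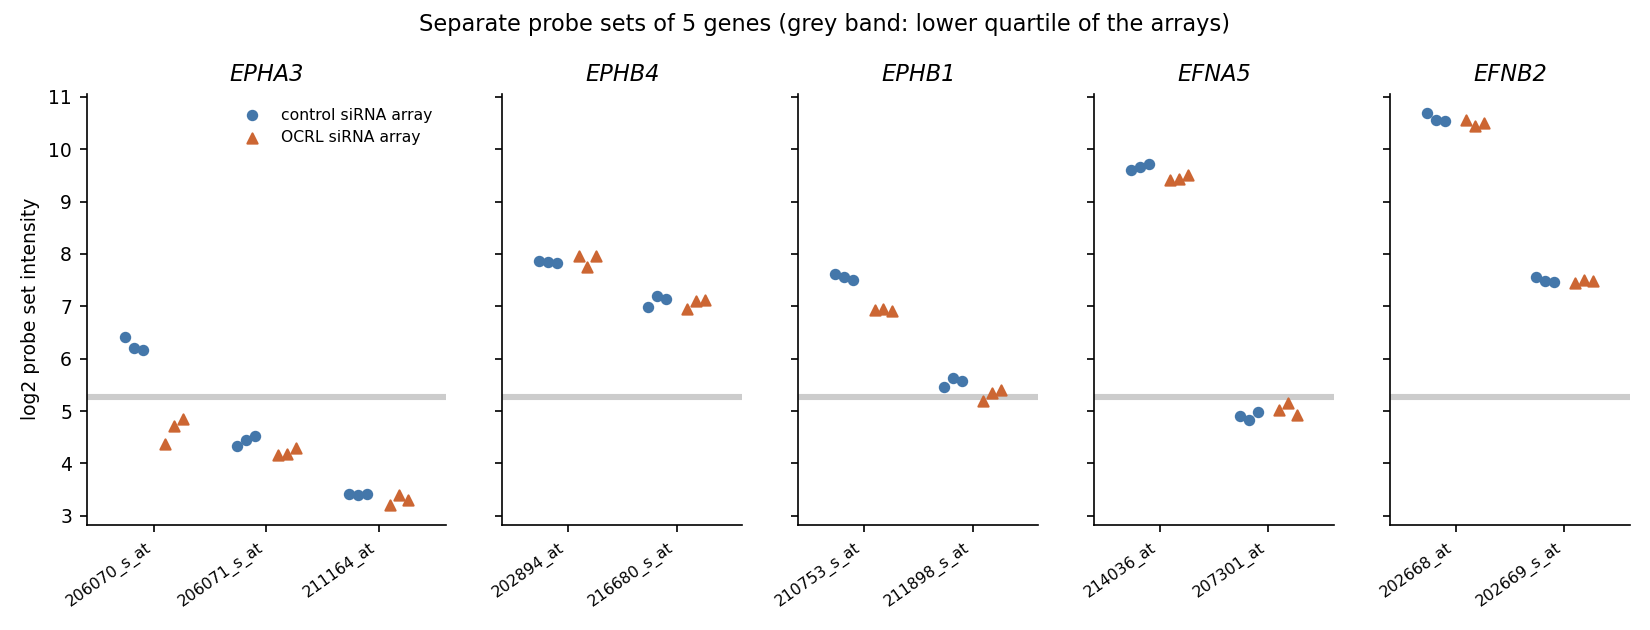
Log2 intensity (y axis) of each probe set of EPHA3, EPHB4, EPHB1, EFNA5 and EFNB2 on each array, with circles for control siRNA and triangles for OCRL siRNA. The grey band spans the lower quartiles of the 6 arrays, 5.23 to 5.31. The brightest EPHA3 probe set drops through the band, the other EPHA3 probe sets and the dimmer one of EFNA5 stay under it, and the brighter EPHB1 probe set drops from 7.56 to 6.93.

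Among the ephrins, the members called were both of the A class. EFNA1, known as an endothelial gene induced by inflammatory cytokines and as the ligand of EPHA2, had log2 values of 8.45, 8.48 and 8.48 on the control arrays and 8.06, 8.16 and 8.24 on the knockdown arrays. The highest knockdown array lay 0.21 log2 units below the lowest control array. The mean fell 1.24-fold, from 8.47 ± 0.018 to 8.15 ± 0.091 (log2 difference -0.31, SE 0.056, 95% interval -0.45 to -0.18), which left 80.5% of the control signal. EFNA1 kept its call in each of the 6 fits that left out an array and under both other scalings.

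EFNA5, a ligand of EPHA3 and other A-class receptors known from the retinotectal map, had a bright and a dim probe set whose differences were of opposite sign. The bright one, 214036_at, had 9.60, 9.67 and 9.72 on the control arrays and 9.42, 9.44 and 9.51 on the knockdown arrays. The knockdown arrays were all lower, by a mean of 0.20 (from 9.66 ± 0.062 to 9.46 ± 0.047, SE 0.051, 95% interval of the difference -0.33 to -0.08), a 1.15-fold fall. The dim one, 207301_at, was under the lower quartile on all 6 arrays, with 4.92, 4.82 and 4.99 on control and 5.03, 5.15 and 4.93 on knockdown arrays, and was not called (log2 difference 0.13, SE 0.071). The call of EFNA5 was lost without control replicate 2 or 3, without OCRL siRNA replicate 1 or 2, and with the mean of its probe sets, where the difference was -0.04.

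EFNA4, the third A-class ligand of the list, was measured by 1 probe set with 8.01, 8.18 and 8.26 on the control arrays and 8.20, 8.29 and 8.33 on the knockdown arrays. The groups overlapped (log2 difference 0.13, SE 0.074, 95% interval -0.05 to 0.30). In the RefSeq table EFNA4, EFNA3 and EFNA1 follow one another on chromosome 1 with no other protein-coding gene between them. Of these neighbours EFNA1 was lower, while EFNA4 and EFNA3 (log2 difference 0.22, SE 0.092) had differences above 0 and were not called. The differences between the neighbours were not tested.

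Neither B-class ligand of the list was called. EFNB2, the ligand of EPHB4 known from arteries, was bright by probe set 202668_at, with 10.69, 10.55 and 10.54 on control and 10.55, 10.44 and 10.50 on knockdown arrays (log2 difference -0.10, SE 0.059, 95% interval -0.24 to 0.04). Its other probe set, 202669_s_at, gave -0.02 (SE 0.046). EFNB1, whose mutation causes craniofrontonasal syndrome, had 5.68, 5.87 and 5.79 on control and 6.11, 5.72 and 5.69 on knockdown arrays. The first knockdown array was the highest and the other two overlapped the controls (log2 difference 0.06, SE 0.12, 95% interval -0.22 to 0.34), so that this interval is the widest of the 9 genes apart from that of EPHA3. Endothelial markers, listed because EPHB4, EFNB2 and EFNA1 are known from vessels, were above the median of all arrays in 0 of 9 genes. Of these 9, limma called 0 (2 at an unadjusted p under 0.05), and their summed linear intensity was 345 to 385 on control and 368 to 371 on knockdown arrays.

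Taken by probe set, 4 of the 14 were called, 1 higher and 3 lower. Without control replicate 2, and likewise without control replicate 3, 2 were called, those of EPHA3 and EFNA1. Among all 22215 probe sets 23.1% were called, 13.2% higher and 9.89% lower. In each of the 4 genes with several probe sets, EPHA3, EPHB4, EFNA5 and EFNB2, at most the brightest was called.

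The rest of the family stands outside the list. Of 12 other Eph and ephrin genes, 9 were measured under a name, and EPHA6, EPHA8 and EPHA10 were not analysed. EPHB1, a receptor of B-class ephrins known from axon guidance at the optic chiasm, fell 1.55-fold. Its brighter probe set had 7.62, 7.57 and 7.51 on the control arrays and 6.93, 6.95 and 6.91 on the knockdown arrays. The groups were separated by 0.55 log2 units (log2 difference -0.63, SE 0.046, limma adjusted p = 2.101e-04). Its dimmer probe set had 5.46, 5.63 and 5.58 against 5.20, 5.35 and 5.40 and missed the threshold (log2 difference -0.24, SE 0.071, adjusted p = 0.0511), with no overlap between the groups. After EPHA3, EPHB1 had the largest difference of the 18 Eph and ephrin genes measured.

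The other 8 of these genes were not called by limma, and 3 of them had an unadjusted p under 0.05. With the replicate number as a block, EFNA3 (limma adjusted p = 0.0371) and EFNB3 (0.04488) were called as well. Whether the numbers pair the arrays could not be settled. EPHA7 lay near the lowest values of the arrays, between 3.34 and 3.53, with a difference of 0.13 (SE 0.044, adjusted p = 0.08041). EFNB3 had a difference of -0.27 (SE 0.10, adjusted p = 0.09767) and EFNA3 one of 0.22 (adjusted p = 0.1359). EPHA1 (log2 difference -0.13, SE 0.18), EPHA5 (-0.09, SE 0.11), EPHB3 (0.07, SE 0.11), EPHB6 (0.08, SE 0.070) and EFNA2 (0.01, SE 0.14) had adjusted p of 0.4677 or more. EPHA1, EPHA5 and EFNA2 were under the lower quartile on all 6 arrays.

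**Figure D3:**
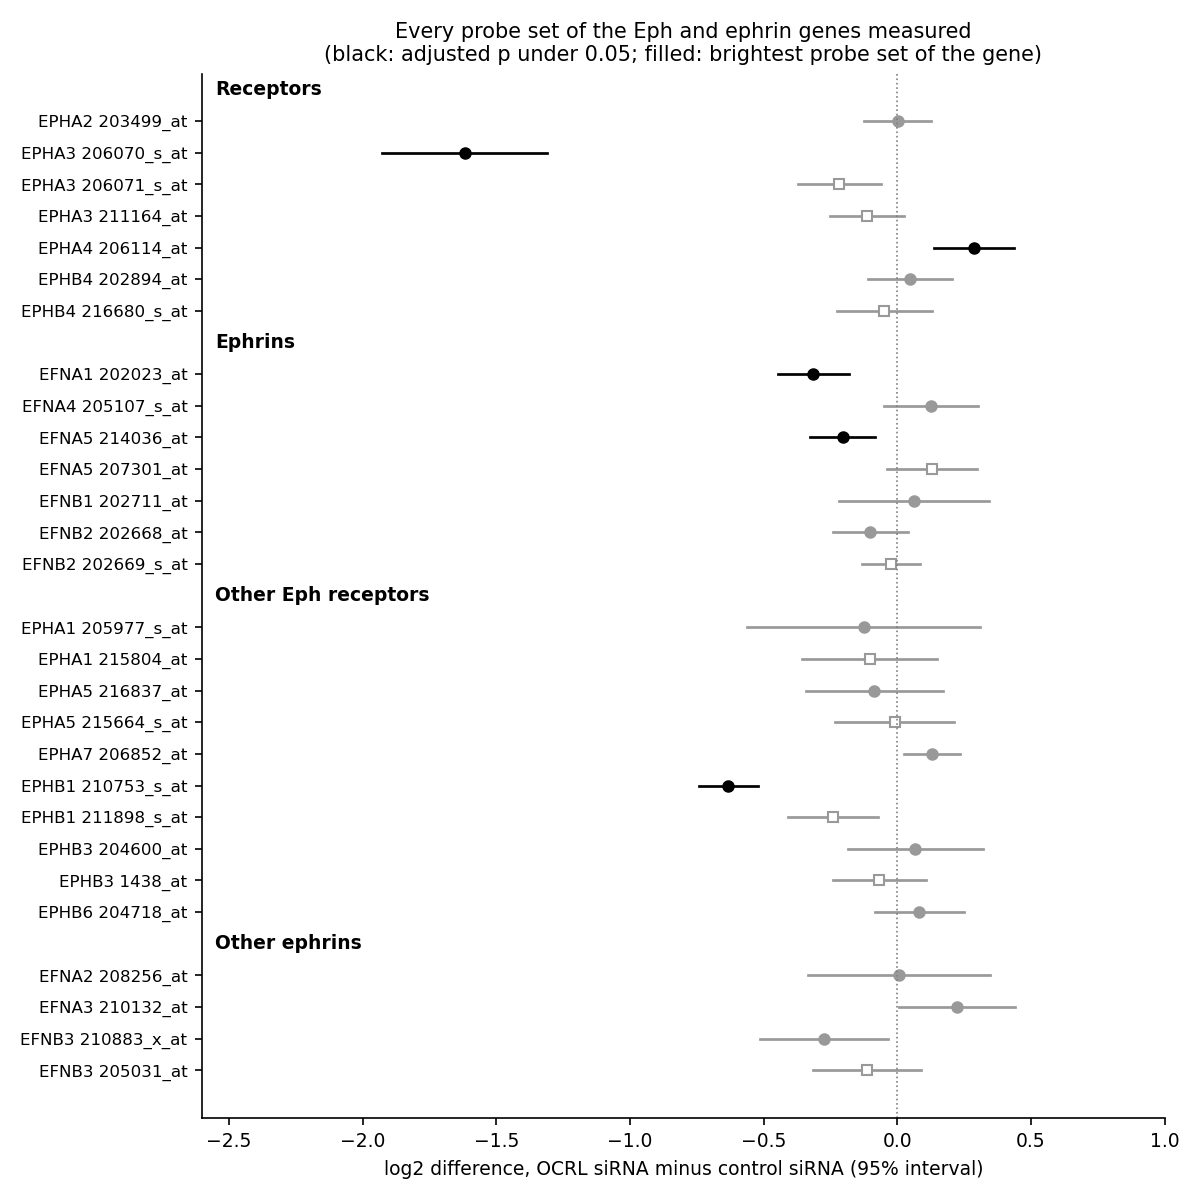
Log2 difference, OCRL siRNA minus control siRNA, with its 95% interval (x axis) for each of the 28 probe sets of the 18 Eph and ephrin genes measured. Black marks an adjusted p under 0.05, grey the others, filled circles the brightest probe set of a gene and open squares its further probe sets. The black points are EPHA3, EPHA4, EFNA1, EFNA5 and, among the genes outside the list, EPHB1.

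Genes that act downstream of or upon the receptors and ligands were taken from 3 lists. Of 45 measured genes of forward signalling, through which an Eph receptor acts on the cytoskeleton, 8 fell, 4 rose and 33 did not pass (limma, 26.7% called against 26.0% of all genes), with a median log2 difference of -0.06. The 6 with the smallest p all fell. The Rac exchange factor TIAM1 went from 8.73, 8.73 and 8.74 to 7.90, 8.08 and 8.01 (log2 difference -0.73, SE 0.055, adjusted p = 2.387e-04), and VAV3, an exchange factor recruited by Eph receptors, from 9.50, 9.49 and 9.52 to 8.78, 9.01 and 8.94 (-0.59, SE 0.065, adjusted p = 0.001006). The exchange factors KALRN (-0.57, SE 0.039) and ITSN1 (-0.30, SE 0.048), the latter an endocytic scaffold that binds EPHB receptors, fell as well. So did the adaptor GRB10 (-0.56, SE 0.056) and the Src family kinase FYN (-0.53, SE 0.055). The single other probe set of KALRN, the single other of TIAM1 and the 3 others of GRB10 were not called. Of the 2 others of FYN 1 was called lower, and of the 4 others of ITSN1 2 were.

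Of 20 genes listed for reverse signalling, 6 fell, 0 rose and 14 did not pass (30% called against 26.0% of all genes), with a median of -0.08. Of the 20, limma gave 9 an unadjusted p under 0.05. TIAM1, FYN and NCK2, and SRC and YES1, which were not called, stand in both lists and are counted in each. The phosphatase PTPN13, which binds the tail of B-class ephrins, went from 10.89, 10.68 and 10.74 to 10.04, 9.88 and 10.10 (log2 difference -0.76, SE 0.080, adjusted p = 8.895e-04). Caveolin CAV1, a protein of the membrane domains where A-class ephrins lie, fell by 0.74 (SE 0.052), and the adaptor NCK2 by 0.15 (SE 0.041, adjusted p = 0.04073). PDZK1, which fell by 0.82 (SE 0.053), is known as a scaffold of brush border transporters and not as a partner of ephrins in particular. NCK2 lost its call in each of the 6 fits that left out an array.

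The third list held proteases, ubiquitin ligases and other genes of shedding and turnover of Ephs and ephrins. Of its 18 measured genes, 7 fell, 4 rose and 7 did not pass (61.1% called against 26.0% of all genes). Their median was -0.04. ADAM10, the protease that sheds A-class ephrins and their complexes with receptors, went from 13.00, 12.91 and 12.92 to 12.58, 12.57 and 12.59 (log2 difference -0.36, SE 0.044, adjusted p = 0.001654), and both of its other probe sets were called lower. ADAM12 (-0.72, SE 0.068), MMP7 (-0.47, SE 0.040) and the ubiquitin ligase NEDD4 (-0.51, SE 0.042) fell. Of the 3 other probe sets of ADAM12, 1 was called lower and 0 higher. The protease ADAM19 rose from 7.62, 7.63 and 7.52 to 8.53, 8.46 and 8.54 (log2 difference 0.92, SE 0.050, limma adjusted p = 7.509e-05). Its rise was called by 1 of its 2 probe sets. Of the gamma-secretase subunits, PSENEN rose by 0.35 (SE 0.040), NCSTN (-0.23) and PSEN2 (-0.17) were called lower and APH1A (0.04) was not called. The list was drawn up with earlier results of these data known, and its high share was not tested against other lists of its size.

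Beside the 44.4% called among the 9 listed genes and the 11.1% among the 9 other family genes, 7 of 28 semaphorin, plexin and neuropilin genes were called, 3 higher and 4 lower. Of 13 genes of netrins, slits and their receptors 38.5% were called, 3 higher and 2 lower, and of 39 other receptor tyrosine kinases 25.6%, 5 higher and 5 lower. The medians of these lists were -0.10, -0.11 and -0.04 on the log2 scale. Over all genes 26.0% were called, 15.5% higher and 10.5% lower. The listed genes were chosen with these values known, so their share is not compared with the others.

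**Figure D4:**
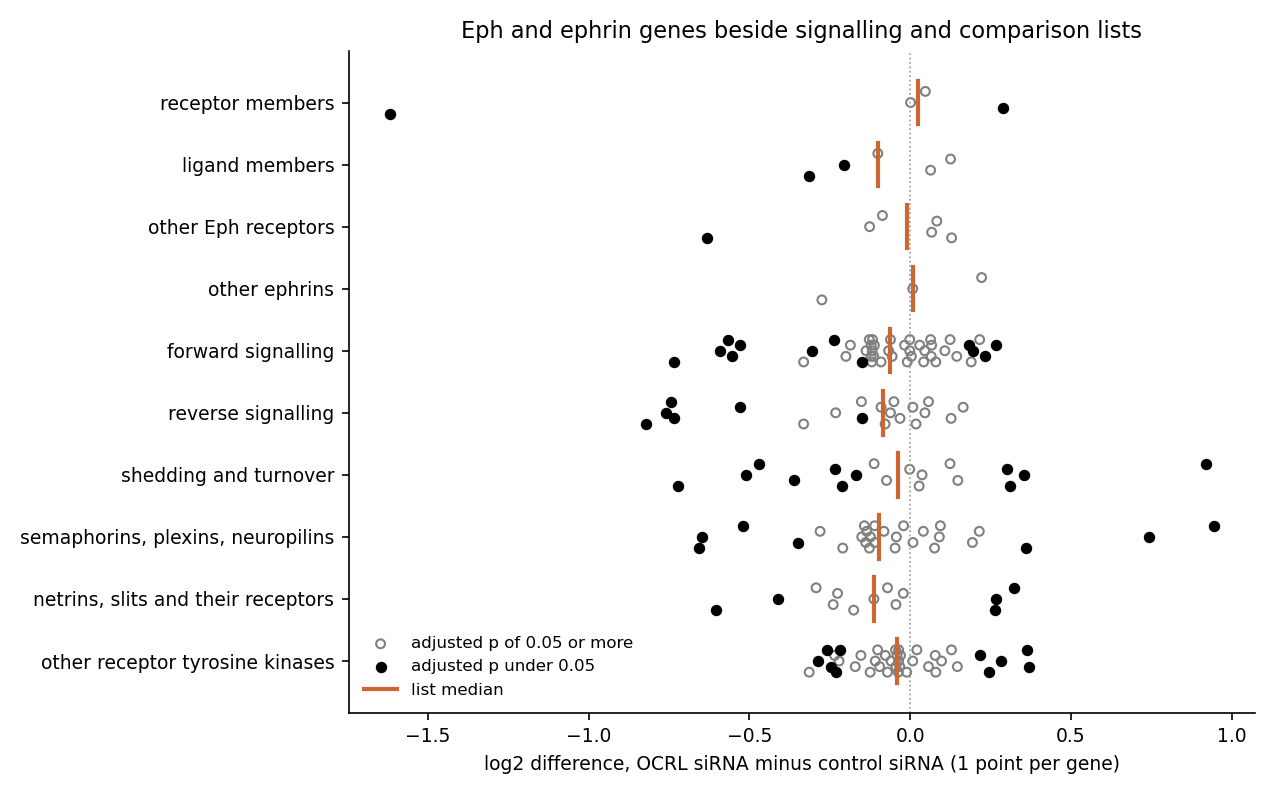
Log2 difference, OCRL siRNA minus control siRNA (x axis), of each measured gene (1 point) in the listed receptors and ligands, the other family genes, 3 signalling lists and 3 comparison lists. Filled points have an adjusted p under 0.05, open points do not, and the vertical bars are list medians. The list medians lie between -0.11 and 0.02, and EPHA3 at -1.62 is the lowest point of all the lists drawn.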

How the data were processed

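RNA of 6 HK2 cultures was hybridised, per the labels' protocols, as biotin-labelled cRNA to Affymetrix GeneChips, 1 array per sample. The authors deposited log2 intensities per probe set, made with affy and RMA per the submitters' processing notes, which give no versions. The deposited arrays were close in distribution but not identical. RMA compresses differences of dim probe sets.

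Of 22277 probe sets, 62 AFFX controls were left out. Platform annotation gave 1 symbol to 19064 of the rest, several to 1043 and none to 2108, and 19052 matched the RefSeq table of GRCh38.p14 through Entrez identifiers with 0 symbols changed. A gene was represented by its probe set with the highest mean over the 6 arrays. Each probe set was fitted in limma 3.58.1 (R 4.3.3) by lmFit and eBayes with a single group term. Two-sided p-values were adjusted by Benjamini-Hochberg over 22215 probe sets, at a threshold of 0.05. "Called" means past that threshold. The fit was tested on simulated data. Differences are OCRL siRNA minus control siRNA, SE is moderated, and 95% intervals are those of the fit.

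The genes and lists were chosen with earlier results of these data known. Named were all listed genes, all other Ephs and ephrins, OCRL, and up to 6 called genes with the smallest p of each signalling list. Further signalling genes are named only for the overlap of lists and beside PSENEN. The comparison lists are given by counts, although the rule allowed names there too. Plots used Python 3.11.15 and matplotlib 3.10.9. The fit was repeated without each array, with a replicate block, after quantile normalisation or median centring, with trended robust eBayes or array weights, without dim probe sets or those ending in _s_at or _x_at, against a 1.5-fold minimum, and with a gene taken as its most variable probe set or as the mean of all its probe sets.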

Additional observations from a re-analysis of the deposited data

How the results depend on the processing

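OCRL and EPHB1 kept their direction in every setting that measured them, and so did EPHA3, EPHA4, EFNA1 and EFNA5. With each array left out in turn, 1 to 2 receptors, 1 to 2 ligands, 2 to 5 probe sets of the listed genes, 1 other family gene (EPHB1) and 19 to 24 of the 78 signalling genes were called, where all 6 arrays gave 2, 2, 4, 1 and 26. The receptor count was 1 and the probe set count 2 without control replicate 2 or control replicate 3. The ligand count was 1 without either of these and without OCRL siRNA replicate 1 or OCRL siRNA replicate 2. With dim probe sets left out, limma called 1 receptor and 0 other family genes (0 at an unadjusted p under 0.05). EPHA3 and EPHB1 were not tested there. Nor were the other family genes dimmer than EPHB1, which are all of the rest but EPHB3. Without probe sets ending in _s_at or _x_at, the counts were 1 and 0 (2 at an unadjusted p under 0.05), EPHA3 was left with its dimmest probe set (-0.11) and EPHB1 with none. Against a 1.5-fold minimum (limma's treat), 1 receptor, EPHA3, was called, with 0 ligands (0 at an unadjusted p under 0.05), 0 other family genes (0), 1 signalling gene and 1 probe set. With the mean of the probe sets of a gene, 1 ligand was called.

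Whether the replicate numbers pair the arrays could not be settled with 3 arrays per group. Deviations from the group means of same-numbered arrays correlated at 0.14, 0.12 and -0.01. Control replicates 1 and 2 each correlated best with the OCRL siRNA array of the same number. Control replicate 3 correlated best with OCRL siRNA replicate 2 (0.096). With the replicate block, 3 other family genes were called, EFNB3 and EFNA3 joining EPHB1, and the calls of the 9 listed genes were as without it. By probe set, the block called 5 of the listed genes' probe sets, with 206071_s_at of EPHA3 added. The dimmer EPHB1 probe set passed there as well (limma adjusted p = 0.02987).

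Signs that turned were all of differences that were not called. Among the listed genes, EFNB1 ran from -0.07 to 0.14 over the settings, EPHA2 from -0.045 to 0.041 and EPHB4 from -0.048 to 0.12. With each array left out in turn, EFNA2 ran from -0.10 to 0.13, EPHB3 from -0.027 to 0.15, EPHA1 from -0.24 to 0.078 and EPHA5 from -0.18 to 0.0018. EFNA2 was also at -0.038 after median centring and -0.088 with array weights, and EPHB3 at -0.0004 with the mean of its probe sets. Median centring moved the median of all probe sets from -0.01 to -0.05 and the share of called probe sets that were higher from 57.2% to 42.0%, with 52.2% after quantile normalisation. Over these settings 26 genes outside the list gave 404 values, of which 367 kept their sign and call. A call was lost in 25, 16 of them against the 1.5-fold minimum, and gained in 2. The sign turned in 10, which include those named above. The causes of the other changes were not tested.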
